A study of Mus musculus with 3 samples.

Results

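Cone photoreceptors were examined among single cells from mouse retinas that had been sorted for the tdTomato label of Müller glia (MG), the main glia of the retina. They were chosen by a rule on measured values. A barcode had to hold at least 2000 features, at most 100000 UMIs (unique molecular identifiers, which count captured RNA molecules) and at most 15% mitochondrial UMIs. It also needed at least 15 UMIs per 10000 from the 6 cone genes Arr3, Opn1sw, Opn1mw, Pde6h, Gnat2 and Pde6c together, and fewer than 20 per 10000 from the 4 MG genes Glul, Rlbp1, Aqp4 and Kcnj10. The rule gave 752 cones among 30990 barcodes that passed the quality filters, of which 158 came from Control, 299 from CCA and 295 from CCANT. Rods, chosen by at least 100 UMIs per 10000 from 6 rod marker genes, Gnat1, Sag and Pde6b among them, with the cone and MG sums below their thresholds, numbered 841, 1357 and 1360.

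Cones are the photoreceptors of daylight and colour vision. In their outer segments an opsin activates the cone transducin, which switches on the cone phosphodiesterase and closes channels gated by cyclic GMP, and arrestin then quenches the opsin. Most mouse cones carry the medium-wavelength opsin, the short-wavelength opsin or both, in proportions that vary from the dorsal to the ventral retina.

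All mice carried Glast-CreERT2 and R26-CAG-LSL-Tdt and received tamoxifen at 75 mg/kg daily for 5 days from postnatal day 20 (P20), so that MG made tdTomato. At P28 Control eyes received AAV7m8-GFAP-GFP-LacZsh, a virus with GFP under the GFAP promoter of glia and a hairpin against LacZ, whereas CCA eyes received AAV7m8-GFAP-cyclin D1-p27sh, the cell cycle activator, mixed 9:1 with that GFP virus. CCANT eyes were treated as CCA eyes and further injected with NMDA, a glutamate receptor agonist that injures retinal neurons, at P35, and with trichostatin A (TSA), a histone deacetylase inhibitor, at P37. At P51, 2 to 4 retinas with good infection were pooled per group for 1 droplet library each, so no test between groups was possible, and every interval below is a 95% exact interval that covers counting error only. For a count of 0, the limit given is the share that 3 counts would make.

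The sort was meant to keep MG, and these cones came through it as well. A tdTomato UMI was found in 4 Control, 14 CCA and 12 CCANT cones. After each cell was thinned to 4000 UMIs, the share with a tdTomato UMI was 0% in Control cones (0 of 158 cones, which allows a share of up to 1.90%), 1.67% in CCA cones and 0.340% in CCANT cones. The same share was 1.44, 1.96 and 1.43% in rods, which the Glast line is not meant to label, and 20.03, 34.1 and 20.5% in MG. By this count the cones were no richer in the label than the rods. Most MG held none at this depth either, so a missing UMI does not show that a cell was unlabelled. The authors' table of retained cells held 0, 1 and 0 of these cones.

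Facts of the libraries that touch all comparisons follow. Cones had a median of 13461, 13703 and 13166 UMIs in Control, CCA and CCANT, against 5071, 5010 and 5166 in rods, and together 2300008, 4691500 and 4597390 UMIs. No cone barcode was shared between libraries (0 in each pair), although 23 to 38 passing barcodes were. At least 3 Y-linked UMIs with at most 1 of Xist were found in 130 Control cones, 0 CCA cones and 115 CCANT cones, which are called cones with Y-linked UMIs. At least 3 Xist UMIs with at most 1 Y-linked UMI were found in 0, 299 and 120 cones, called cones with Xist UMIs, and another 22 CCANT cones carried at least 3 of both. Control and CCA therefore cannot be told apart from male and female. Antigen presentation, interferon, immediate-early, stress and rod genes are also given for CCANT over Control in cones with Y-linked UMIs alone, where 1.72% of 7515 genes tested were at least 2-fold higher and 0.998% at least 2-fold lower. Scrublet, a doublet caller, marked 6, 27 and 33 cones.

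The cone label was checked against markers. The 6 cone genes summed to 23730, 23305 and 22523 CPM (UMIs per 1000000) in the cones of Control, CCA and CCANT, against 63.3, 101 and 87.3 CPM in rods and 23.5, 43.8 and 45.2 CPM in MG. The 4 MG genes summed to 377, 311 and 361 CPM, against 10034, 9506 and 8730 CPM in MG. The rule used both sets, so these sums are given as a description. Another 9 MG markers that the rule did not use, Apoe, Clu, Car2 and Vim among them, summed to 2118, 2315 and 3628 CPM in cones, 1681, 1877 and 3552 CPM in rods and 22149, 23885 and 25167 CPM in MG. The median cone held 15.3, 14.2 and 17.6 of these UMIs per 10000 and the highest 242, 284 and 690. Their sum was thus highest in CCANT cones, with Apoe, a lipid carrier of glia and immune cells, at 904, 973 and 2077 CPM, and its part in the differences between libraries was not tested. Rod markers summed to 4514, 5310 and 6177 CPM in the cones. Marker sums of other neurons were uneven between the libraries: bipolar markers stood at 230, 652 and 1203 CPM, amacrine markers at 93.9, 274 and 244 CPM, ganglion cell markers at 172, 25.8 and 15.9 CPM and immune markers at 342, 30.1 and 112 CPM.

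Cone barcodes were well separated from the other barcodes in Control and less so in CCANT. The lowest cone sums of members were 31.3, 40.3 and 79.5 UMIs per 10000 in Control, 17.3, 22.4 and 33.1 in CCA, and 15.01, 15.11 and 15.15 in CCANT. The highest sums just below the threshold were 9.01, 14.97 and 12.94 in the 3 libraries, and the median member had 250, 271 and 274. The highest MG sums among members were 19.2, 19.0 and 17.4 per 10000 and the lowest just above the limit were 29.7, 28.5 and 20.7. A further 25, 22 and 45 barcodes with enough cone UMIs were left out by the MG limit. Members with a cone sum below 100 numbered 5, 20 and 42.

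**Figure D1:**
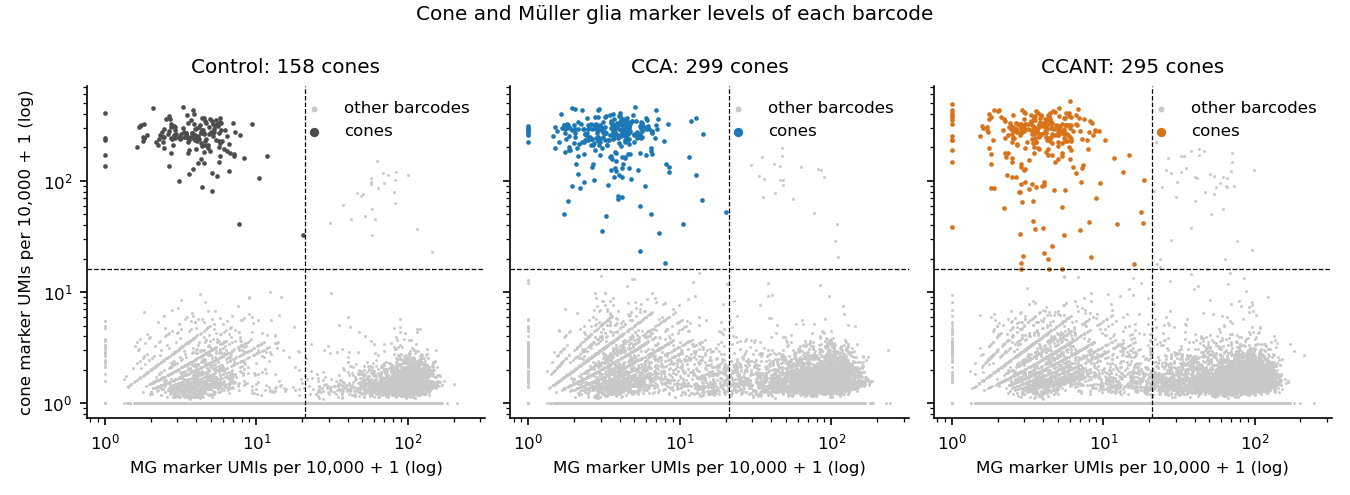
UMIs per 10000 of the 6 cone genes (vertical) against the 4 MG genes (horizontal) for every passing barcode of each library, both plus 1 on log axes, with cones coloured and dashed lines at the thresholds of 15 and 20. The cones form a cloud around medians of 250 to 274 on the vertical axis, and barcodes near the cone threshold are most frequent in CCANT.

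Some cone barcodes also held UMIs of another cell class. Cones with at least 100 rod, 15 bipolar, 10 amacrine or 20 immune marker UMIs per 10000 numbered 7 of 158 (4.43%) in Control, 42 of 299 (14.0%) in CCA and 62 of 295 (21.0%) in CCANT. The rod limit was passed by 3, 20 and 39 of them, the bipolar limit by 3, 13 and 15, the amacrine limit by 0, 10 and 9 and the immune limit by 1, 0 and 1. The remaining 151, 257 and 233 cones are called unmixed below, and differences between libraries are given for all cones and for the unmixed ones. This set was defined after the data were seen.

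Cones made up 1.65% (interval 1.40 to 1.92) of passing barcodes in Control, 2.84% (2.53 to 3.18) in CCA and 2.71% (2.41 to 3.03) in CCANT. Among photoreceptors alone the shares lay closer together, with cones at 15.8% (13.6 to 18.2) of cones plus rods in Control, 18.1% (16.2 to 19.99) in CCA and 17.8% (16.01 to 19.8) in CCANT. The photoreceptor intervals overlap. All these cells passed a gate for MG, so the shares are not those of the retina. They also depend on the filters. Each barcode needed 2000 features, and rods had fewer UMIs than cones. The marker minimum was 100 per 10000 for rods and 15 for cones. The part of these limits in the shares was not tested.

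The opsins belong to the rule and were also used to divide the cones, so their levels are a description. Opn1sw encodes the short-wavelength (S) opsin and lies on chromosome 6, 29376671 to 29388468 on the minus strand of GRCm38. Opn1mw encodes the medium-wavelength (M) opsin and lies on chromosome X, 74127464 to 74150760 on the plus strand. Opn1sw stood at 3071, 3803 and 3762 CPM and Opn1mw at 4007, 3698 and 3497 CPM in the cones of Control, CCA and CCANT. Opn1sw made up 43.4, 50.7 and 51.8% of the opsin UMIs.

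Single cones ranged from pure M to pure S. A cone was called S when at least 90% of its opsin UMIs were Opn1sw, M when at most 10% were, and dual otherwise. With a minimum of 10 opsin UMIs, 157 of 158, 295 of 299 and 275 of 295 cones could be classed, and the median cone held 102.5, 114 and 107 opsin UMIs. S cones numbered 14 in Control (8.92%, interval 4.96 to 14.5). There were 46 of them among CCA cones (15.6%, interval 11.6 to 20.2), and CCANT had 48 (17.5%, interval 13.2 to 22.5). Dual cones numbered 71 (45.2%), 116 (39.3%) and 97 (35.3%), and M cones 72 (45.9%), 133 (45.1%) and 130 (47.3%). The M share was alike in the 3 libraries, whereas the S share was lowest in Control, with an interval that overlaps both others. Within CCANT, S cones were 14.0% of cones with Y-linked UMIs and 19.5% of cones with Xist UMIs, and in Control they were 6.20% of cones with Y-linked UMIs. No Opn1sw UMI at all was found in 64 of 72, 108 of 133 and 102 of 130 M cones. No Opn1mw UMI was found in 6 of 14, 17 of 46 and 26 of 48 S cones.

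**Figure D2:**
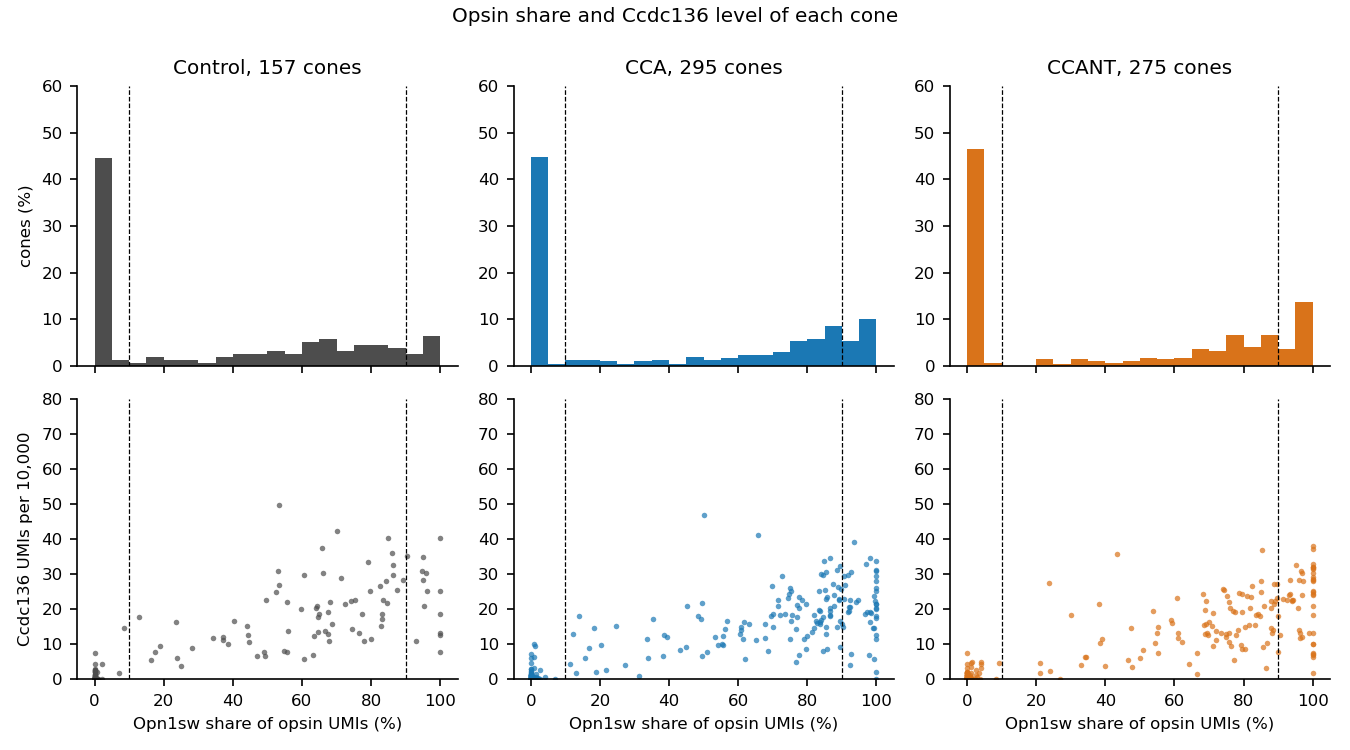
Top, percent of cones by the Opn1sw share of their opsin UMIs in bins of 5% for each library; bottom, Ccdc136 UMIs per 10000 against that share, 1 point per cone. Dashed lines mark 10 and 90%, and the tall bin of M cones at the left is the one with little Ccdc136.

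Promoter sequences of Opn1sw and Opn1mw are shown because these opsins define the S, dual and M cones. The promoter of Ccdc136 is shown because this gene was lower in M cones than in S and dual cones. Those of Gnat2, which all cones use, and of Samd7, which was higher in M cones, are shown because each holds a TAATCC match, the letters typical of the homeodomain factors Crx and Otx2. Each runs 5′ to 3′ from 250 bases before to 50 after the RefSeq start on GRCm38.p6, and capitals mark matches on either strand to TAATCC or to AGGTCA, the core hexamer of nuclear receptors. Opn1sw is from chr6:29380464-29380763 (minus strand), Ccdc136 from chr6:29396325-29396624 (plus), Opn1mw from chrX:74127216-74127515 (plus), Gnat2 from chr3:108092816-108093115 (plus) and Samd7 from chr3:30746043-30746342 (plus).
Opn1sw: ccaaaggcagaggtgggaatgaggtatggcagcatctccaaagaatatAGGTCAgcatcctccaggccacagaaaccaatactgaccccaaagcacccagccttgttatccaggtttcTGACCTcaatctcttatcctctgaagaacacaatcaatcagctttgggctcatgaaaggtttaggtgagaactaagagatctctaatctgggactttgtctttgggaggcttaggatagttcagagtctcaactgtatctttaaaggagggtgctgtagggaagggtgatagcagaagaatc
Ccdc136: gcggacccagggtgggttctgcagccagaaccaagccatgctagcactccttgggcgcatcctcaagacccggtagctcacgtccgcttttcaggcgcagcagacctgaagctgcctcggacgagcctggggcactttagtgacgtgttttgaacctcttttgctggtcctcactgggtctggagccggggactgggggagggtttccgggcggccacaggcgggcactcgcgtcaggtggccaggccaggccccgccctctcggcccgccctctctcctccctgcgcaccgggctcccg
Opn1mw: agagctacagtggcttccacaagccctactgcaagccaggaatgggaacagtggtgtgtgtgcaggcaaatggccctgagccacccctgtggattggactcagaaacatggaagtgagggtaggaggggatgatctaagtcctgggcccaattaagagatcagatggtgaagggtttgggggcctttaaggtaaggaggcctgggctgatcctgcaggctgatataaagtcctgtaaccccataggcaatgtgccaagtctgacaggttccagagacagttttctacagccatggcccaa
Gnat2: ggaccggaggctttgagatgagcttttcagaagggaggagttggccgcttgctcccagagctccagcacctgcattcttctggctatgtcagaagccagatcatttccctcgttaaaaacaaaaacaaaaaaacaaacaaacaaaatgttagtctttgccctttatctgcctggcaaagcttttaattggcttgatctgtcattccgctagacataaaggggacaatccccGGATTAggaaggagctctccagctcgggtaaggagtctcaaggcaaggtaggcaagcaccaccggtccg
Samd7: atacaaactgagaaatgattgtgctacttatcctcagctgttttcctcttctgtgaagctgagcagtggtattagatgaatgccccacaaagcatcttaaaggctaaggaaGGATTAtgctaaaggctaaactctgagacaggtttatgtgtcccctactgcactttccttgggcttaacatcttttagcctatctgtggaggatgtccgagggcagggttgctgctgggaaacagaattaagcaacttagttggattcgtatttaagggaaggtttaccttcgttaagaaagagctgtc
The Opn1sw window held 0 TAATCC and 2 AGGTCA matches. The Gnat2 window held 1 TAATCC match, 19 bases before the start, and the Samd7 window 1, 139 bases before it. Neither motif occurred in the windows of Ccdc136, Opn1mw, Arr3 and Pde6h (0 matches each). Among all 32851 RefSeq promoter windows of this length, 2320 (7.06%) held TAATCC and 5340 (16.3%) AGGTCA. A match describes letters only, and its absence says that they are not in this window.

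S and M cones differed in few genes beside the opsins that defined them. Of 7630 genes that reached a mean of 20 CPM and 50 UMIs over both classes, 23 (0.301%) were at least 2-fold higher in S than in M cones in all 3 libraries and 30 (0.393%) at least 2-fold lower. The number lower depended on the cells taken, at 48 without Scrublet doublets, 53 with classes at 5 and 95% and 61 in unmixed cones. S cones of Control, CCA and CCANT held 182289, 687494 and 613456 UMIs together. Low levels in S cones, those of Control above all, therefore rest on few UMIs. Ccdc136, a coiled-coil gene next to Opn1sw (chromosome 6, 29396309 to 29426994, plus strand), differed most after the opsins. Ccdc136 stood at 2134, 1772 and 2075 CPM in S cones of Control, CCA and CCANT, at 1885, 1598 and 1354 CPM in dual cones and at 89.98, 75.1 and 73.3 CPM in M cones. The log2 ratios of S over M were 4.57, 4.56 and 4.82. Dual cones were thus nearer to S than to M cones for Ccdc136 in each library. The RefSeq starts of Opn1sw and Ccdc136 lie 16062 bases apart on opposite strands, and Ccdc136 was at 13.0, 13.8 and 25.3 CPM in rods. It was no cone gene by detection alone, since 33.9% of Control MG and 47.0% of Control bipolar cells held a Ccdc136 UMI after thinning, against 63.9% of Control cones.

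Other genes higher in S cones varied in where the dual cones lay. Syndig1l, a relative of a synapse differentiation gene, stood at 154, 137 and 127 CPM in S cones against 10.9, 9.22 and 16.8 CPM in M cones and 138, 148 and 123 CPM in dual cones. The unnamed gene 5430419D17Rik stood at 313, 320 and 320 CPM against 22.7, 22.8 and 55.1 CPM. Unlike Ccdc136, 5430419D17Rik was also present in rods, at 360, 238 and 111 CPM. Cacna1h, a T-type calcium channel, stood at 104, 78.6 and 81.5 CPM in S cones, 59.9, 50.2 and 35.9 CPM in dual cones and 13.5, 8.78 and 16.3 CPM in M cones. Eya1, a transcription regulator that is in none of the lists, was at 137, 85.8 and 124 CPM in S against 27.8, 29.0 and 34.5 CPM in M cones. Klhl41 and A930009A15Rik were also among the genes ranked highest by their smallest ratio, with 65.8, 42.2 and 31.0 CPM against 8.41, 5.27 and 5.13 CPM for Klhl41, and 148, 145 and 116 CPM against 17.7, 30.3 and 22.9 CPM for A930009A15Rik. Gpc5, a glypican, was ranked with them only because a count of 0 was set to 3. It had 0 UMIs in S cones of Control and stood at 127 and 106 CPM in those of CCA and CCANT, against 3.36, 3.51 and 21.9 CPM in M cones, with 41.3% of the UMIs of all CCA cones in 1 cone. Abi3 was also counted, but it overlaps the cone gene Gngt2 on chromosome 11 on the opposite strand, and whether counting used strand is not stated, so its level is uncertain.

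Genes higher in M cones were of other kinds, and several were also present in rods. Samd7, a photoreceptor repressor that keeps some genes silent in rods, stood at 115, 125 and 108 CPM in M cones of Control, CCA and CCANT against 11.0, 13.1 and 16.3 CPM in S cones, and at 177, 200 and 162 CPM in rods. Smug1, a DNA repair glycosylase, stood at 291, 315 and 284 CPM against 27.4, 45.1 and 42.4 CPM. Nr2f2, a nuclear receptor that is also called COUP-TFII, stood at 60.6, 60.2 and 47.6 CPM against 5.49, 14.6 and 14.7 CPM. For Samd7, dual cones lay at 118, 56.2 and 33.4 CPM, and for Nr2f2 at 6.53, 12.0 and 17.3 CPM, so the dual cones were close to M cones for neither gene in CCA and CCANT. The transcript 4930434J06Rik had 0 UMIs in S cones of Control and CCA and 1 in those of CCANT, against 128, 68.9 and 138 CPM in M cones. Gm44532 stood at 369, 336 and 354 CPM in M cones against 0, 42.2 and 24.5 CPM in S cones, but it overlaps B130024G19Rik on the opposite strand of chromosome 7, which was at 254, 206 and 221 CPM against 11.0, 45.1 and 21.2 CPM, and the overlapping genes cannot be told apart. Cap2, a regulator of actin, was at 57.2, 75.97 and 60.2 CPM against 11.0, 13.1 and 6.52 CPM, and Gm30382 at 37.0, 39.5 and 74.2 CPM against 5.49, 7.27 and 16.3 CPM.

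Most of the phototransduction and regulatory genes did not separate the classes by 2-fold. Of 19 cone phototransduction genes that passed the count filter, 1 was higher and 1 lower in S cones, and these were the opsins themselves. Arr3, cone arrestin, was lower in S cones by log2 values of −0.62, −0.78 and −0.70, and Thrb, the thyroid hormone receptor whose cone isoform promotes M opsin, by −0.82, −0.61 and −0.54. Gnat2, the alpha subunit of cone transducin, was at 0.23, 0.20 and 0.33. Rxrg, a retinoid receptor that limits S opsin, was at 0.71, 0.26 and 0.80. Vax2, a factor of the ventral retina, was below the count filter with 4, 12 and 17 UMIs in S cones, and its levels were 21.9, 17.5 and 27.7 CPM in S against 4.20, 7.47 and 8.40 CPM in M cones. Of 17 photoreceptor transcription factors that passed the filter, Samd7 and Nr2f2 were lower in S cones (0.393% of all genes were) and 0 were higher (0.301% were). Both lay under 20 CPM in S cones of each library and passed the filter through their level in M cones, whereas Vax2 did not pass it. These counts therefore depend in part on the filter. Tafa3 was at 351, 346 and 362 CPM in S and 313, 303 and 280 CPM in M cones. The difference between S and M cones in 0 of 25 synapse genes, 0 of 23 outer segment genes and 0 of 25 glycolysis and energy genes reached 2-fold.

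Cones were next compared with rods of the same library. The rule used cone genes and kept cones out of the rods, so the values are a description. Of 7607 genes tested, 488 (6.42%) were at least 2-fold higher in cones in all 3 libraries and 361 (4.75%) at least 2-fold lower. The gene with the highest ratio that was neither in the rule nor in the phototransduction list was Plcz1, known as the sperm phospholipase C zeta, at 137, 99.1 and 94.6 CPM in cones of Control, CCA and CCANT against 0.217, 0 and 0.116 CPM in rods. Agr2, an endoplasmic reticulum disulfide isomerase, followed at 90, 62.5 and 81.6 CPM against 0.434, 0.260 and 0.232 CPM. Both were nearly absent from rods.

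Phototransduction divided by subunit. The 6 cone genes of the rule were higher by selection. Of the other 14 cone phototransduction genes, 5 were higher in cones (6.42% of all genes were) and 2 lower (4.75% were). Cnga3 and Cngb3, the 2 subunits of the cone channel, had log2 ratios of cones over rods of 7.60, 8.32 and 7.90 for Cnga3 and 7.28, 7.99 and 6.62 for Cngb3 in Control, CCA and CCANT. Gngt2, the gamma subunit of cone transducin, had 8.40, 7.50 and 6.89, and Gnb3, its beta subunit, 3.06, 2.44 and 2.32. Slc24a2, the cone sodium-calcium exchanger, had 6.44, 6.13 and 5.73. The 2 genes lower in cones were Gucy2f, a guanylate cyclase, at −5.46, −4.93 and −4.38, and Pdc, phosducin, at −1.88, −1.75 and −1.69. The channel, transducin and exchanger therefore had their own cone genes, whereas the cyclase Gucy2f was low in cones, at 11.7, 13.6 and 15.2 CPM in cones against 516, 417 and 317 CPM in rods. Of 15 rod phototransduction genes, 6 had chosen the rods. Of the other 9, 8 were lower in cones and 0 higher, with Nrl, the rod leucine zipper factor, at 26.1, 29.8 and 69.8 CPM in cones against 789, 861 and 1022 CPM in rods.

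**Figure D3:**
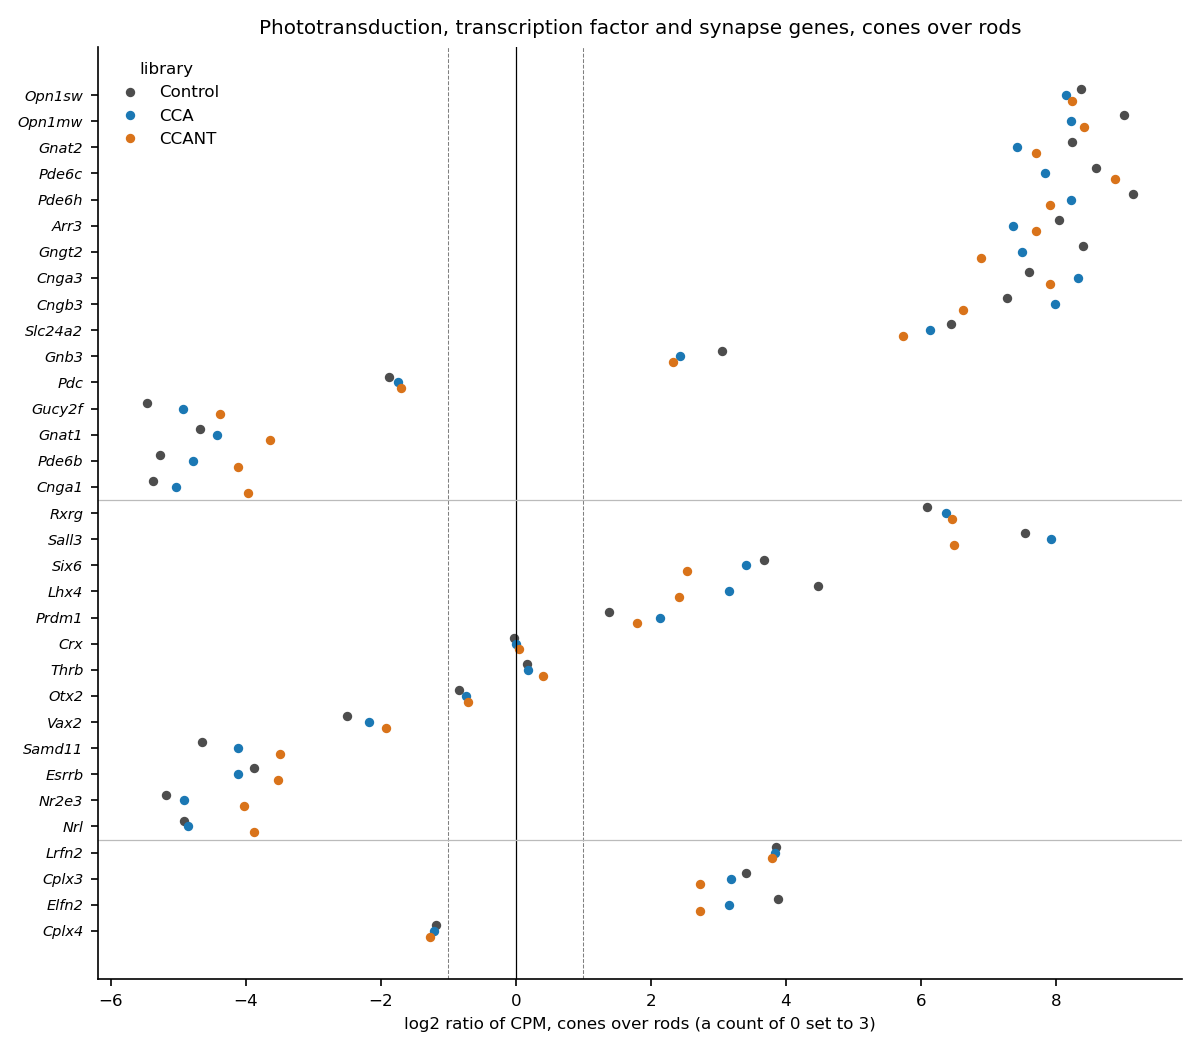
Log2 ratio of CPM in cones over rods for phototransduction, transcription factor and synapse genes, 1 dot per library, with dashed lines at 2-fold. The 11 cone phototransduction genes that were at least 2-fold higher lie to the right, Pdc and Gucy2f lie to the left, and the 7 genes of that list that passed 2-fold in neither direction are not drawn. Crx and Thrb lie near 0, and the rod genes lie to the left in all 3 libraries. A count of 0 was set to 3.

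Among photoreceptor transcription factors, 5 of 18 were higher (6.42% of all genes were) and 4 lower (4.75% were) in cones. Rxrg stood at 73.5, 75.5 and 61.1 CPM in cones against 1.08, 0.910 and 0.697 CPM in rods, and Sall3, a zinc finger factor of cones and other neurons, at 120, 94.6 and 83.5 CPM against 0, 0 and 0.929 CPM. Lhx4, Six6 and Prdm1 were the other three that were higher. Samd11, Vax2, Esrrb and Mef2c were lower in cones, with Esrrb, an oestrogen-related receptor of rods, at 40.4, 32.0 and 32.6 CPM against 596, 555 and 376 CPM. Crx, the shared homeodomain factor of photoreceptors, was equal within counting error in each library, with log2 ratios of −0.02, 0.00 and 0.04. Thrb, which is known as a cone regulator, differed little, at 0.16, 0.18 and 0.40, with 1409, 1129 and 1080 CPM in cones against 1259, 996 and 817 CPM in rods. The count covers the whole Thrb gene, introns included, and no isoform.

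Other parts of the photoreceptor differed in single genes. The shares over all genes were again 6.42% higher and 4.75% lower. At the synapse, 3 of 25 genes were higher and 1 lower. Cplx3, a complexin of ribbon synapses, stood at 373, 480 and 502 CPM in cones against 35.3, 52.5 and 75.8 CPM in rods, whereas its relative Cplx4 stood at 407, 407 and 405 CPM against 922, 944 and 982 CPM. Lrfn2, an adhesion molecule, stood at 711, 554 and 577 CPM against 49.0, 38.6 and 41.4 CPM, and Elfn2, another one, at 47.8, 35.8 and 33.7 CPM against 3.25, 4.03 and 5.11 CPM. The complexins thus ran in opposite directions. Of 23 outer segment genes, Pcdh15 was higher in cones, at 9836, 9477 and 8510 CPM against 4294, 3982 and 3177 CPM, and 6 were lower. These were Rp1, Prom1, Fscn2, Prph2, Rom1 and Kcnv2, with the disc rim protein Prph2 at 906, 967 and 1014 CPM against 2941, 3150 and 3425 CPM. Of 25 glycolysis and energy genes, the creatine kinases Ckb and Ckmt1 and the phosphofructokinase Pfkm were higher and Nxnl1, the source of a rod-derived cone survival factor, lower, at 93.5, 93.6 and 107 CPM against 289, 306 and 290 CPM. Ckb stood at 2077, 2176 and 2119 CPM in cones against 511, 589 and 844 CPM in rods. For the 13 mitochondrially encoded oxidative phosphorylation genes the median log2 ratio was 0.78 and 0 passed 2-fold in all libraries. Of 7 visual cycle genes, the dehydrogenases Dhrs3 and Rdh12 were lower in cones. Of 21 stress and survival genes, Fgf2, Edn2, Gadd45b, Lifr and Cebpd were lower and 0 higher, with Edn2, a signal of injured photoreceptors, at 1.30, 2.13 and 2.39 CPM in cones against 29.0, 47.7 and 34.0 CPM in rods. Of 9 genes related to S and M cones, 4 belonged to the rule. Of the other 5, Rxrg, Tafa3 and Ccdc136 were higher in cones and Vax2 lower.

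Lists outside the photoreceptor programme were compared with rods in the same way, beside 6.42% of all genes higher and 4.75% lower. Of 4 interferon-stimulated genes tested, 1 was higher in cones. Of 6 cell cycle genes, Cdk6 was higher, at 259, 247 and 233 CPM in cones against 11.9, 6.76 and 16.5 CPM in rods. Of 9 glutamate receptor and transporter genes, Slc1a2, a glutamate transporter of cones, and Grik1 were higher and Grm8 was lower. Nr4a1 (of 15 immediate-early genes), Hsph1 (of 10 heat shock genes) and Tef (of 13 clock genes) were each the only member higher, and Hspa1a was lower. None of 10 antigen presentation, 5 cell death, 6 p53 or 10 histone deacetylase genes passed 2-fold the same way in all 3 libraries (0 in each list). The genes with the deepest deficit in cones beyond the lists were Slc22a29, Abca13, Sh2d1a, Gm30198, Gm14505, Gm14216 and the overlapping pair Cmah and Gm11342 on opposite strands of chromosome 13, which cannot be told apart.

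The virus drove its genes from the GFAP promoter of glia, and the libraries were compared to describe the cones beside treated MG. Few of all genes tested in cones passed 2-fold between libraries. Between CCA and Control cones, 132 of 7481 genes tested (1.76%) were at least 2-fold higher in CCA and 45 (0.602%) at least 2-fold lower. Between CCANT and Control cones, 188 of 7539 (2.49%) were higher and 40 (0.531%) lower, and between CCANT and CCA cones 49 of 7633 (0.642%) were higher and 23 (0.301%) lower. With 1 library a group these are counts of size, not of tested changes. None of 19 cone phototransduction genes, 17 photoreceptor transcription factors, 25 synapse genes, 25 glycolysis and energy genes or 13 mitochondrially encoded genes passed 2-fold in CCA or CCANT over Control (0 in each list). The same held for the 22 and 23 outer segment genes, the 6 and 7 visual cycle genes, 13 clock genes, 4 cell death genes, 6 p53 targets, 6 and 7 cell cycle genes and 10 and 9 histone deacetylases tested. At the shares over all genes given above, lists of this length would hold few or no members past 2-fold. The counts of 0 therefore do not set these lists apart from other genes.

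For cone phototransduction the ratios were narrow, but the list holds the 6 genes of the rule, which chose the cells in each library. Of the cone phototransduction genes named below, only Cngb3 lies outside the rule, so these values are a description. Over the 19 genes the median log2 ratio was −0.02 in CCA and −0.09 in CCANT over Control, beside 0.00 and −0.01 over all genes, and single genes ranged from −0.23 to 0.31 and from −0.34 to 0.29. Opn1sw had the highest value of the list in both comparisons. Arr3 stood at 6068, 5774 and 5487 CPM, Pde6h, the inhibitory phosphodiesterase subunit, at 6824, 6229 and 6399 CPM, and Pde6c, the catalytic subunit, at 1998, 1956 and 1681 CPM. Gnat2 stood at 1762, 1844 and 1696 CPM and Cngb3 at 2727, 2681 and 2630 CPM. Among the regulators, Thrb stood at 1409, 1129 and 1080 CPM and Crx at 612, 519 and 522 CPM. Cdkn1b, which encodes the p27 protein targeted by the hairpin, was at 70.0, 50.5 and 65.9 CPM in cones, against 225, 84.1 and 104 CPM in MG.

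The group of genes that differed most between libraries was antigen presentation by the class I major histocompatibility complex (MHC). These genes display peptides on the cell surface and are induced by interferon. Of 16 antigen presentation genes tested, 12 were at least 2-fold lower in CCA cones than in Control cones (0.602% of all genes were) and 0 higher, and 9 were lower in CCANT (0.531% of all genes were). By class, 9 of 13 class I genes were lower in CCA and 9 of 13 in CCANT, and the other 3 in CCA were the class II genes Cd74, H2-Aa and H2-Ab1. Between cones with Y-linked UMIs, 9 of 16 were lower in CCANT, all class I, and H2-Ab1 was higher. The median log2 ratio of the list was −2.12 and −1.30, against 0.00 and −0.01 over all genes. The list was chosen with results of these libraries known, so it is no independent evidence of its direction. The count filter takes the mean over both libraries compared. Genes low in CCA and CCANT, such as Tap1, Nlrc5 and Psmb9, therefore passed it through their Control level. Between CCANT and CCA, 11 genes of the list passed it. The counts of lower members given here thus depend in part on the filter, which was the same for all genes.

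The 16 class I genes of the list together stood at 2429 CPM (interval 2365 to 2493) in Control cones, 632 CPM (610 to 655) in CCA cones and 715 CPM (691 to 740) in CCANT cones. CCA over Control gave a log2 ratio of −1.94 (interval −2.01 to −1.88), and CCANT over Control gave −1.76 (−1.83 to −1.70). The difference ran through the cones. The median cone held 20.3 class I UMIs per 10000 in Control, 4.11 in CCA and 3.86 in CCANT, and the range from the 10th to the 90th percentile was 10.1 to 36.4 in Control, 1.98 to 10.1 in CCA and 1.54 to 8.43 in CCANT. Unmixed cones gave 2317, 664 and 748 CPM. Cones with Y-linked UMIs gave 2416 CPM in Control and 783 CPM in CCANT, and cones with Xist UMIs gave 632 CPM in CCA and 524 CPM in CCANT. The level was therefore lower in CCANT cones than in Control cones among cones with Y-linked UMIs alone, at a log2 ratio of −1.63 (−1.71 to −1.54).

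H2-K1, a classical class I heavy chain (chromosome 17, 33996017 to 34000347, minus strand), stood at 713 CPM in Control, 153 CPM in CCA and 174 CPM in CCANT cones. Over Control the log2 ratio was −2.22 (−2.34 to −2.09) in CCA and −2.04 (−2.16 to −1.91) in CCANT. Between cones with Y-linked UMIs, CCANT over Control gave −1.75 for H2-K1, −2.04 for H2-D1, −1.06 for B2m and −3.04 for Tap1. After thinning, 84.8% of Control cones held an H2-K1 UMI, against 35.5% of CCA and 34.0% of CCANT cones. H2-D1, the other classical heavy chain, stood at 708, 169 and 171 CPM. The H2 genes are near-identical paralogs, so the split of counts among them is uncertain, while each one named here was lower in CCA and CCANT. H2-Q4 stood at 143, 35.8 and 28.1 CPM and H2-Q7 at 200, 20.2 and 25.7 CPM. B2m, the shared light chain, stood at 279, 83.6 and 126 CPM, but 23.5% of its Control UMIs came from 1 cone, and in unmixed cones its log2 ratios were −1.37 and −0.78. Tap1, a subunit of the peptide transporter, stood at 46.5, 6.40 and 4.79 CPM, and Nlrc5, the activator of class I genes, at 43.0, 9.59 and 8.05 CPM. The proteasome subunits Psmb8 and Psmb9 stood at 47.4, 11.7 and 17.4 CPM and at 52.6, 6.82 and 13.3 CPM. Tapbp, the peptide loading factor tapasin, was an exception among class I genes, at 56.5, 51.2 and 48.3 CPM, and Tap2 at 27.8, 17.1 and 14.6 CPM did not reach 2-fold.

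The class II genes rested mostly on single cones. Cd74, the invariant chain, stood at 147, 14.1 and 137 CPM, and 73.4% of its Control and 87.9% of its CCANT UMIs came from 1 cone each. H2-Aa stood at 66.5, 6.40 and 53.3 CPM, with 74.5% of its Control and 84.5% of its CCANT UMIs in 1 cone. H2-Ab1 stood at 90.9, 10.02 and 86.6 CPM, with 50.2% and 84.4%. Both remained at least 2-fold lower in CCA in unmixed cones without the top cone. H2-Eb1, which is not in the list, had 75.2% and 92.3% in 1 cone. Cd74 and H2-Eb1 are typical of immune cells, where they stood at 11240 and 4443 CPM in Control, and immune markers in cones were at 342, 30.1 and 112 CPM. In unmixed cones, 11 of 14 antigen presentation genes tested were lower in CCA, and 8 of 16 were lower and 3 higher in CCANT, the higher ones being Cd74, H2-Aa and H2-Ab1. Among all genes tested in unmixed cones, 54 of 7325 were lower in CCA, and 44 of 7404 were lower and 122 higher in CCANT.

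The class I level also differed between libraries in other classes, by unequal amounts. Rods stood at 746, 395 and 611 CPM, bipolar cells at 1235, 568 and 615 CPM, amacrine cells at 830, 594 and 684 CPM and MG at 4568, 2849 and 2400 CPM in Control, CCA and CCANT. The log2 ratios of CCA over Control were −0.92 (−0.99 to −0.85) in rods and −0.68 (−0.69 to −0.68) in MG, beside −1.94 in cones. For CCANT they were −0.29 (−0.35 to −0.22) in rods and −0.93 (−0.93 to −0.92) in MG, beside −1.76 in cones. The median rod held 5.22 class I UMIs per 10000 in Control, 2.58 in CCA and 2.43 in CCANT, and 34.9, 20.03 and 21.3% of thinned rods held an H2-K1 UMI. The pooled CCANT rod value thus lay nearer to Control than the median CCANT rod did, and immune markers in rods summed to 130, 52.5 and 355 CPM. Their part in the pooled value was not tested. Bipolar cells had −1.12 (−1.15 to −1.09) in CCA and −1.01 (−1.04 to −0.98) in CCANT, and amacrine cells −0.48 and −0.28. Cones had the largest log2 difference of these classes in both comparisons, followed by bipolar cells. The counting intervals of cones do not overlap those of the others. Control cones stood above Control rods, bipolar and amacrine cells and below MG. How much of each neuron's count is free RNA in the droplet was not tested. S, dual and M cones all showed the difference, with class I sums of 4230, 1952 and 2533 CPM in Control, 467, 588 and 665 CPM in CCA and 663, 560 and 635 CPM in CCANT. In Control, 1 of the 14 S cones held 63.6% of the class I UMIs of S cones, and without it their sum was 2187 CPM. The median S cone held 18.1 class I UMIs per 10000 in Control, 3.87 in CCA and 3.85 in CCANT.

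**Figure D4:**
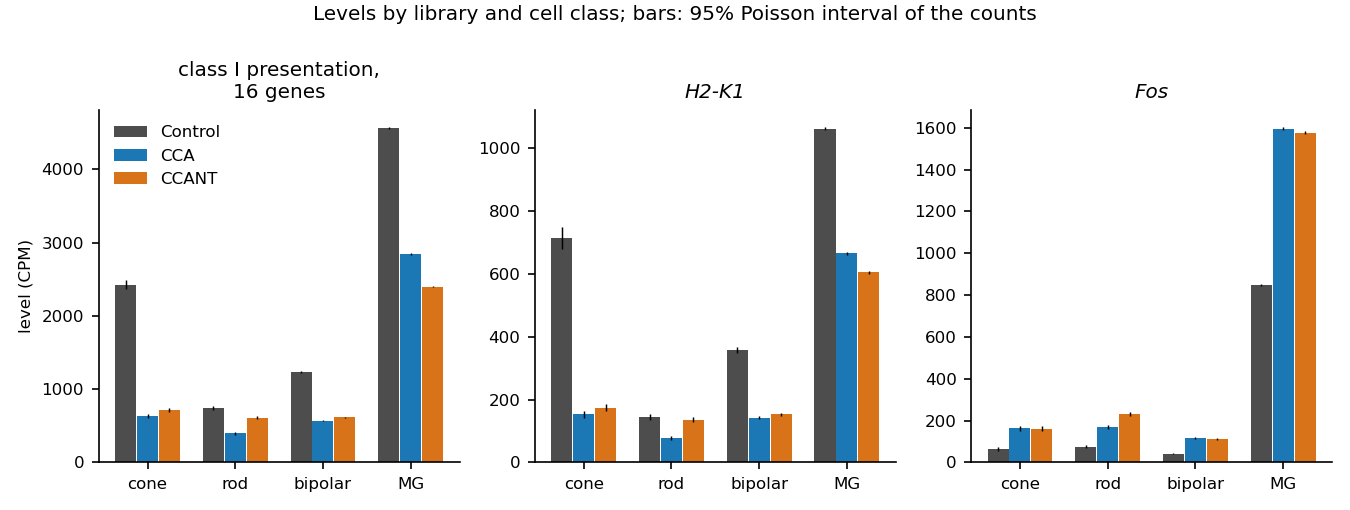
CPM with 95% Poisson intervals (counting error only) of the 16 class I genes together, H2-K1 and Fos in cones, rods, bipolar cells and MG, 1 bar per library. Class I genes in cones stand at 2429 CPM in Control against 632 and 715 CPM in CCA and CCANT, while Fos is higher in CCA and CCANT in each class.

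Interferon genes beside antigen presentation had few counts. Of 36 genes in the list, 6 and 5 passed the filter in CCA and CCANT over Control, and 2 and 3 of them were at least 2-fold lower (0.602% and 0.531% of all genes were). Irf8 and Irf9 in CCA and Gbp7 in CCANT lay under 20 CPM and passed the filter through their Control level, so these counts depend in part on the filter. In unmixed cones 1 of 4 and 1 of 5 were lower (54 of 7325 and 44 of 7404 of all genes tested were). Without the top cone there, Irf8 and Irf9 were still at least 2-fold lower in CCA, and none of the 3 called in CCANT was. Between cones with Y-linked UMIs, 1 of 5 was lower in CCANT, Gbp7, and 1 higher, Ifitm3. Irf9, part of the type I interferon response complex, stood at 27.4, 12.8 and 6.74 CPM and Gbp7, a guanylate-binding protein, at 29.6, 7.25 and 12.6 CPM. Between cones with Y-linked UMIs, CCANT over Control gave log2 ratios of −2.17 for Irf9 and −1.43 for Gbp7. Irf8 stood at 43.9, 4.90 and 20.4 CPM, but 83.0% of its CCANT UMIs came from 1 cone. Cxcl10, an interferon-induced chemokine, was at 40.4, 1.07 and 0.870 CPM, and 97.8% of the Control UMIs came from 1 cone, so this gene describes that cell.

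Some immediate-early genes were higher in CCA and CCANT cones. Of 14 tested, 4 were at least 2-fold higher than in Control in both comparisons (1.76% and 2.49% of all genes were), and these were Ccn1, Fosb, Fos and Egr1. Ccn1 and Fosb lay under 20 CPM in Control and passed the count filter through their CCA and CCANT levels, so the count depends in part on the filter. In unmixed cones 7 of 14 were higher in each (30 of 7325 and 122 of 7404 of all genes tested were). Between cones with Y-linked UMIs 7 of 15 were higher in CCANT (1.72% of all genes were). The 22 genes of the list summed to 1237, 1678 and 1769 CPM in Control, CCA and CCANT cones. In S cones the order was another, at 1931, 1389 and 1690 CPM, with 58.0% of the Control UMIs of S cones in 1 cone and 1152 CPM without it. The median S cone held 10.2, 14.1 and 12.6 UMIs of these genes per 10000. Fos, a subunit of the AP-1 factor induced by cell activity and by tissue dissociation (chromosome 12, 85473890 to 85477273, plus strand), stood at 64.8, 164 and 162 CPM. This was a log2 ratio over Control of 1.34 (1.08 to 1.60) in CCA cones, and CCANT cones had 1.32 (1.06 to 1.58). A Fos UMI was present in 15.2% of thinned Control cones against 32.1% and 32.0% of CCA and CCANT cones. Egr1, a zinc finger factor of the same kind, stood at 57.8, 120 and 128 CPM, Fosb at 14.8, 51.4 and 38.3 CPM, and the matrix protein gene Ccn1 at 9.13, 36.4 and 55.5 CPM. These genes were not particular to cones: rods had Fos at log2 ratios of 1.16 and 1.61 and MG at 0.91 and 0.89. Within CCANT, cones with Y-linked UMIs had a Fos ratio of 1.49 over Control cones with Y-linked UMIs, and ratios of 1.16 for Egr1, 1.55 for Fosb and 2.63 for Ccn1. Dissociation and RNA quality were not tested for their part in it.

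Some stress genes were higher as well. Of 18 photoreceptor stress and survival genes tested, 4 were at least 2-fold higher in CCA and 3 in CCANT (1.76% and 2.49% of all genes were). The metallothionein Mt1, which binds zinc, stood at 49.6, 154 and 191 CPM and Mt2 at 15.7, 59.5 and 53.7 CPM, with 44.5% and 55.9% of their CCA UMIs in 1 cone. In unmixed cones the log2 ratios of Mt1 were 1.71 and 2.07, and without the top cone there the CCA ratio was 0.84, under 2-fold, and that of Mt2 1.05. Between cones with Y-linked UMIs, CCANT over Control gave 2.26 for Mt1, 2.12 for Mt2 and 1.67 for Cebpd. Cebpd, a factor induced by cytokines, stood at 17.4, 43.5 and 48.5 CPM. Mt2 and Cebpd lay under 20 CPM in Control and passed the count filter through their CCA and CCANT levels. Ntrk2 completed the genes higher in CCA. Of 9 heat shock genes, Cryab, a small chaperone, was higher in CCANT, at 25.2, 42.4 and 62.6 CPM. Rods had Mt1 ratios of 1.10 and 2.14.

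The genes with the largest ratios upward lay outside the photoreceptor lists, and for all of them but Wdfy4 the ratio was smaller in unmixed cones. In CCA the highest ratios over Control belonged to Gm20754, Lrrtm4, Il1rapl2, Hs6st3, Nrg1, Sdk1, Erbb4 and Tac2, and in CCANT to Nrg1, Lrrtm4, Gm20754, Wdfy4, Sdk1, Grik2, Tmem132d and Grik1. Lrrtm4, a synaptic adhesion molecule, stood at 6.09, 135 and 185 CPM in cones and at 2620 CPM in Control bipolar cells. Nrg1, neuregulin, stood at 11.7, 183 and 416 CPM in cones and at 4519 CPM in Control amacrine cells, and 42.2% of its CCANT UMIs came from 1 cone. In unmixed cones the log2 ratio of Lrrtm4 was 2.46 in CCA and 1.04 in CCANT, down from 4.47 and 4.93, and that of Nrg1 was 0.73 and 1.30, down from 3.96 and 5.15. Tac2 came from 1 cone for 98.2% of its CCA UMIs and Wdfy4, an immune gene, for 97.9% of its CCANT UMIs, and Wdfy4 had 0 UMIs in unmixed Control cones. Of these 8 genes per comparison, 4 in CCA and 8 in CCANT were still at least 2-fold higher in unmixed cones. There the CCA ratio of Tac2 turned from 3.74 to −1.64 and that of Erbb4 from 3.82 to −0.10. With the top cone left out as well, Lrrtm4 and Nrg1 were no longer 2-fold higher in CCANT, while Lrrtm4 still was in CCA. Grik1 is itself a bipolar marker in the limits that define these cones. Of the 132 genes higher in CCA, 35 were still at least 2-fold higher in unmixed cones, and of the 188 higher in CCANT, 97. Of the glutamate receptor and transporter genes, 5 of 11 were higher in CCA and 4 of 9 in CCANT (1.76% and 2.49% of all genes were), among them Gria1, Gria3, Gria4 and Grik1 in both. Fewer of them passed the count filter in unmixed cones, where 0 of 6 were higher and 1 lower in CCA, and 1 of 6 was higher in CCANT. Among all genes tested there, 30 of 7325 were higher and 54 lower in CCA, and 122 of 7404 higher in CCANT. In unmixed cones without the top cone, Gria1, Gria4 and Grik1 were still at least 2-fold higher in CCANT, and Gria3 was not. None of the 5 called in CCA was.

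Many of the genes lower than in Control had most of their Control UMIs in 1 cone. Of 45 genes lower in CCA, 26 had over 50% of the UMIs of the higher library in 1 cone, and of 40 lower in CCANT, 24. Without the cone holding most UMIs of a gene, 25 and 20 of them were still at least 2-fold lower, and 26 and 19 were in unmixed cones with that cone left out. Sncg, Nefl and Nrn1, genes of retinal ganglion cells, had 87.2%, 85.9% and 78.6% of their Control UMIs in 1 cone. All 3 were still at least 2-fold lower in CCA and in CCANT in unmixed cones without the top cone, where the CCANT log2 ratios of Sncg, Nefl and Nrn1 were −2.12, −2.33 and −1.27, against −4.75, −4.96 and −2.87 over all cones. With the top cone alone left out, Nrn1 was at −0.89. C1qb, C1qc and Ctss, genes of microglia, had 86.8%, 93.3% and 92.1% of their Control UMIs in 1 cone. In unmixed cones the CCA ratio of C1qb was −1.42, and those of C1qc and Ctss turned to 0.11 and 0.26. Nxph1 had 98.6% in 1 cone, and its CCANT ratio of −5.18 turned to 1.15 in unmixed cones. Ganglion cell markers were not among the limits that defined unmixed cones. For Cdh8, an adhesion gene of bipolar cells among others, 67.8% of Control UMIs were in 1 cone, and its CCANT ratio of −3.01 turned to 3.56 in unmixed cones. Besides Gm17167, the named genes of this group with under 50% of their Control UMIs in 1 cone were the class I genes Tap1 and H2-Q7, with 9.35% and 4.56% of their Control UMIs in the top cone. Gm17167, a transcript without a known role, was at 96.5, 0 and 50.9 CPM, at least 151-fold lower in CCA than in Control by the floor of 3 counts per library, with 4.05% of the Control UMIs in the top cone. It was 0 in CCA rods as well.

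**Figure D5:**
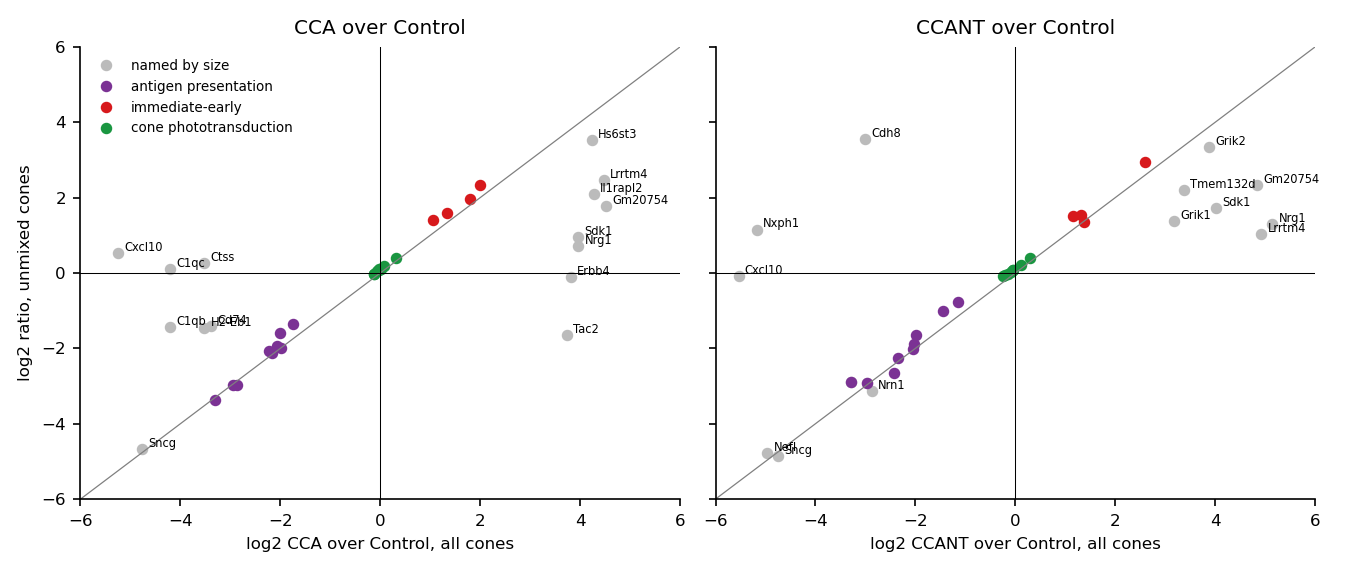
Log2 ratio over Control in all cones (horizontal) against that in unmixed cones (vertical) for CCA and CCANT. Genes named by size are in grey and some cone phototransduction genes in green. Purple marks the 9 class I genes called lower, and red the 4 immediate-early genes called higher. Class II genes, Tapbp and Tap2 are not among the purple ones. Genes with 0 UMIs on a side are not drawn. The purple and red genes lie near the diagonal, whereas many grey genes lie closer to 0 on the vertical axis. Purple and red genes were drawn because they had passed 2-fold in all cones, so their place describes these members only.

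Rod genes in cones also differed between all cones and unmixed cones. Of 15 rod phototransduction genes, 7 were at least 2-fold higher in CCANT than in Control cones (2.49% of all genes were), among them Cnga1, Cngb1, Nr2e3, Slc24a1, Gnat1 and Nrl, and 0 in CCA. Gnat1, the rod transducin, stood at 93.5, 131 and 278 CPM in cones and Nrl at 26.1, 29.8 and 69.8 CPM. In unmixed cones 0 of 15 reached 2-fold, and the rod marker sum is one of the limits that define the unmixed cones. For CCANT over Control, Gnat1 had a log2 ratio of 1.57 in all cones and 0.50 in unmixed cones, and Nrl 1.42 and 0.59. Between cones with Y-linked UMIs, 5 of 15 were higher in CCANT, with ratios of 1.82 for Gnat1 and 1.58 for Nrl. In rods themselves the CCANT ratio of Gnat1 was 0.54. The 15 genes together had CCANT log2 ratios over Control of 0.47 in cones and 0.29 in rods. The same sum had 1.35 in MG, 0.98 in bipolar, 1.02 in amacrine and 0.95 in immune cells, so the rise was not particular to cones.

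CCANT cones and CCA cones differed from each other in fewer of the listed genes. Of 11 antigen presentation genes tested, 3 were higher in CCANT (0.642% of all genes were), and these were H2-Ab1, H2-Aa and Cd74, which rested on 1 cone for most of their UMIs. Of 15 rod phototransduction genes, 4 were higher in CCANT, Cnga1, Gnat1 and Nrl among them, and of 10 glutamate receptor genes Grik1, at 364 CPM in CCANT against 95.1 CPM in CCA. Over all cones, none of 19 cone phototransduction, 17 transcription factor, 25 synapse or 15 immediate-early genes reached 2-fold (0 in each list). In unmixed cones 3 of 11 antigen presentation genes were higher, and 0 of 14 rod and 0 of 5 glutamate receptor genes that passed the filter were. Among all genes tested there, 50 of 7402 were higher. Grik1 was nevertheless still at least 2-fold higher in unmixed cones without the top cone. Between cones with Xist UMIs, where 0.39% of 7434 genes tested were higher in CCANT than in CCA and 1.91% lower, 4 of 15 rod phototransduction genes and 0 antigen presentation genes were higher. There Grik1 was higher and Gria2, Gria3 and Gria4 were lower, of 9 glutamate receptor genes, and of the synapse list Rims1 was lower.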

How the data were processed

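The authors sorted tdTomato+ cells, built 1 droplet library per group with 10x chemistry and deposited UMI counts per gene and barcode from Cell Ranger 6.1.1 on mm10 with tdTomato and GFP added, with intronic reads counted. Intron counting raises long genes, and whether reads were counted by strand is not stated. The deposited counts were used without normalization. The authors' separate table of retained cells served only to see which cones it held. Cones, rods and other classes were selected on marker UMIs as described, doublets were kept, and Scrublet (scanpy 1.11.5, expected rate 10%) was an alternative. UMIs were summed over the cells of a class and library and given as CPM. Ratios carry exact 95% Poisson intervals and shares Clopper-Pearson intervals (scipy 1.17.1). Genes needed 20 CPM on average over the 2 groups compared and 50 UMIs in both together, and a ratio was counted at 2-fold. A gene under 20 CPM in 1 of the 2 groups could thus pass through its level in the other. Cells are not replicates, and with 1 library per group there was no test. Computations used Python 3.11.15, numpy 2.4.6 and pandas 2.3.3, and the interval code was tested on simulated data.

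Named genes were members of 430 list genes (426 measured) plus the 8 largest rises and falls per comparison, leaving out Xist, Tsix, Y-linked genes, tdTomato and GFP (729 features). The lists covered cone and rod phototransduction, photoreceptor transcription factors, synapse, outer segment, opsin classes, visual cycle, energy, mitochondrial genes, stress, cell death, interferon, antigen presentation, immediate-early genes, heat shock, clock, p53, cell cycle, histone deacetylases, glutamate receptors and the transgenes. The cones and the lists were chosen with earlier results of these data known. Some list members are not reported here. Positions follow GENCODE M21 (GRCm38), promoters RefSeq GRCm38.p6.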

Additional observations from a re-analysis of the deposited data

How the results depend on the processing

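Counts of genes past 2-fold and shares of cones were recomputed under 18 alternatives, 4 of them added after the data were seen. Not every value was recomputed under each alternative. A value stayed when a count was within 1.5 times the main count or a share within its interval. All 19 values recomputed stayed with 3000 features, a cone sum of 30, an MG sum below 10 or a rod sum below 100 per 10000. So did all 8 with 30 opsin UMIs, all 6 with size factors in place of CPM and both with 200 rod UMIs per 10000 for rods. These 2 values cannot cover the cone shares of photoreceptors in all 3 libraries. The other alternatives moved at least 1 of them; unless the alternative itself leaves out cells or genes, the cause was not tested. Leaving out a replicate was not possible with 1 library per group. No paired analysis was possible because each group has 1 library.

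Cones with at least 1 tdTomato UMI numbered 4 in Control, 14 in CCA and 12 in CCANT; with these few cells CCANT over Control had 136 lower genes, CCANT over CCA 134 higher and 100 lower, and cones over rods 173 higher and 114 lower, while S cones were 0% in Control and 21.4% in CCA and M cones 100% in Control and 58.3% in CCANT. Without Scrublet doublets, CCA over Control had 47 higher and 26 lower genes, CCANT over Control 105 and 23, and S cones had 48 lower than M cones. The mean over cones gave 12 lower in CCANT than CCA. Without the filter on low counts, CCA over Control had 3589 higher and 2532 lower, CCANT over Control 4329 and 1636, CCANT over CCA 3334 and 2053, and cones over rods 1406 and 1054. CCANT cones with Xist UMIs against CCA cones had 29 higher and 142 lower, and CCANT against Control cones with Y-linked UMIs in both, also added later, had 75 lower. With opsin classes at 5 and 95%, S cones were 10.2% in CCA and 53 genes were lower in S than M cones. Without thinning, 2.53, 4.68 and 4.07% of cones held a tdTomato UMI.

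In unmixed cones, one of those added later, CCA over Control had 30 higher, CCANT over Control 122 higher, CCANT over CCA 10 lower, and S cones 61 lower than M cones. Without the cone holding most UMIs of a gene, CCA over Control had 213 higher and 26 lower and CCANT over Control 298 and 26. With both limits, CCA over Control had 60 higher and 23 lower, CCANT over Control 21 lower and CCANT over CCA 6 lower.

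Single-gene ratios gave 933 values for 75 results; 652 stayed within their counting interval, 256 moved outside it and 25 that were past 2-fold changed direction. The last were, as log2 values over Control: with a tdTomato UMI, B2m 0.76, Lrrtm4 −2.37, Nrg1 −0.048 and Sdk1 −0.79 for CCA and B2m 1.76 and Grik1 −0.88 for CCANT; in unmixed cones, Erbb4 −0.10, Tac2 −1.64, Cxcl10 0.53, C1qc 0.11 and Ctss 0.26 for CCA and Nxph1 1.15 and Cdh8 3.56 for CCANT; without the top cone, Tac2 −1.75 for CCA and Nxph1 0.55 for CCANT; with both limits, Erbb4 −0.65, Tac2 −2.06, Cxcl10 1.16, C1qc 0.28 and Ctss 0.22 for CCA and Cxcl10 0.32, Nxph1 1.64 and Cdh8 3.78 for CCANT; without Scrublet doublets, Cxcl10 0.43 and Ctss 0.17 for CCA.

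Class I genes of cones rest on 1 library a group, on cones of different sex in Control and CCA, and on retinas pooled without identity, so group, sex and library cannot be told apart there. Counting intervals cover none of these.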

Other observations

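Gm17167 was seen in 31.0% of Control and 18.0% of CCANT cones after thinning but in 0 of 299 CCA cones, which allows a share of up to 1.00%, and in 32.4% of Control and 0.134% of CCA MG. Igkc, an immunoglobulin light chain gene that no cone should make, stood at 50.9, 10.7 and 32.6 CPM in Control, CCA and CCANT cones, and at 43.4 CPM in Control bipolar cells and 40.0 CPM in Control amacrine cells. Gt(ROSA)26Sor, the transcript of the locus that holds the tdTomato reporter, stood at 34.8, 13.4 and 32.6 CPM in cones. Gfap, the intermediate filament of reactive glia, stood at 2.61, 20.7 and 28.7 CPM in cones, with 37.1% of the CCA and 39.4% of the CCANT UMIs in 1 cone.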
